A study of Mus musculus with 18 samples.

Results

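The hippocampal transcriptome of untrained *Ccny* knockout (KO) mice was compared with that of untrained wild-type (WT) mice, across all 15329 genes of the deposited table. The 6 libraries of this comparison, 3 of KO_Basal and 3 of WT_Basal, were chosen by their labels from the 18 libraries of the series. The remaining 12 were taken from mice of both genotypes after original learning (OL) or after original and reversal learning (RL) in the Morris water maze, with 3 mice in each of WT_OL, KO_OL, WT_RL and KO_RL. All mice were of the C57BL/6J strain and 8 to 10 weeks old, each gave 1 library of whole hippocampus, and the WT mice were littermates of the KO mice. The KO_Basal mice carried the *Ccny* KO allele and had no maze training, and the WT_Basal mice differed from them by genotype alone as far as the labels say. Which part of *Ccny* the allele removes is not given in the sources used here. The methods describe the mice of the maze as male, and the labels give no sex for the sequenced mice.

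Cyclin Y (CCNY) is a membrane-anchored member of the cyclin family that binds and activates kinases of the CDK14 to CDK18 group. In dividing cells it takes part in the priming of the Wnt co-receptor LRP6. In neurons, which no longer divide, it is found at synapses, where the study places it as a brake on the delivery of AMPA receptors and on actin remodelling during long-term potentiation. The question put to the untrained mice was which hippocampal transcripts differ before any learning.

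Values are CPM, the reads of a gene scaled by the normalized size of its library, and differences are KO_Basal minus WT_Basal on the log2(CPM + 1) scale, which understates the change of genes at a few CPM. Each library held 29248557 to 31509208 reads on these genes, so that 1 read was worth 0.0317 to 0.0333 CPM. Differences were tested with limma, with 1 mean per group over all 18 libraries, and p-values were adjusted over all 15329 genes by the Benjamini-Hochberg method. A second call rule is that of the study, a change over 1.5-fold with an unadjusted p under 0.05. Where a gene outside the 3 adjusted calls is said to have risen or fallen, it passed this second rule only. With 3 mice against 3, an exact permutation test cannot give a two-sided p under 0.1, so no single gene can be called by that test. In bulk tissue, fewer cells of a type and less RNA per cell cannot be told apart.

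*Ccny* (chromosome 18, 9312304 to 9450154, minus strand, GRCm38) was lower in every KO_Basal mouse, but was not absent. It was at 158, 150 and 158 CPM in WT_Basal and at 95.8, 90.5 and 89.7 CPM in KO_Basal. The KO mean of 92.0 ± 3.33 CPM (SD, n = 3) was 59.2% of the WT mean of 155 ± 4.87 CPM (SD, n = 3). The log2 difference was -0.75 (standard error 0.106, adjusted p = 0.0121 from limma), and the groups did not overlap (exact permutation test, two-sided p = 0.1). Over all 18 libraries, the 9 KO mice lay between 74.0 and 95.8 CPM and the 9 WT mice between 107 and 158 CPM. Reads of an altered transcript that keeps part of the gene would be counted here as *Ccny*, and gene-level values do not show which exons they came from.

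After adjustment 3 genes, or 0.0196% of those tested, differed between KO_Basal and WT_Basal: *Ccny*, *Tmem151b* and *Znrf1*. *Znrf1* (chromosome 8, 111536097 to 111626030), which encodes an E3 ubiquitin ligase of neurons, was at 95.3, 96.3 and 98.1 CPM in WT_Basal and at 144, 163 and 142 CPM in KO_Basal. It rose to 1.55 times the WT mean, a log2 difference of 0.62 with a standard error of 0.0825 and an adjusted p of 0.0109 in limma. *Tmem151b* (chromosome 17, 45541952 to 45549677), which encodes a transmembrane protein, was at 97.0, 114 and 102 CPM in WT_Basal and at 163, 193 and 179 CPM in KO_Basal. It rose to 1.71 times the WT mean, a log2 difference of 0.77 with a standard error of 0.104 and, again in limma, an adjusted p of 0.0109. For both genes the lowest KO_Basal mouse was well above the highest WT_Basal mouse.

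The 12 trained mice give a second look at the same genes in other animals. *Znrf1* lay between 104 and 138 CPM in the 6 trained WT mice and between 142 and 160 CPM in the 6 trained KO mice. Taken over all 18 libraries, the 9 KO mice started at 142 CPM, above the highest of the 9 WT mice at 138 CPM. *Tmem151b* was at 153 to 206 CPM in the trained WT mice and at 202 to 256 CPM in the trained KO mice, so that the untrained WT mice stood below all other mice. Its KO-minus-WT differences were 0.34 after original and 0.53 after reversal learning, neither past the adjusted threshold (adjusted p = 0.163 and 0.322 from limma). The exons of *Znrf1* and *Tmem151b* overlap those of *Ldhd* and *Tcte1* on the other strand. *Ldhd* was at 8.75 to 12.3 CPM and *Tcte1* at 1.49 to 2.43 CPM in the 6 libraries, with log2 differences of 0.09 and -0.18, and whether counting used strand is not given in the sources used here. The adjusted calls depended on which mice were in the fit. Without WT_Basal 1, WT_Basal 3, KO_Basal 2 or KO_Basal 3 no gene passed, with adjusted p-values of 0.0551 to 0.120 for the 3 genes, and without WT_Basal 2 *Tmem151b* alone passed (adjusted p = 0.0375, limma). Without KO_Basal 1 all 3 passed and *Fos* did too. The log2 differences themselves moved little, from -0.78 to -0.73 for *Ccny*, from 0.71 to 0.83 for *Tmem151b* and from 0.56 to 0.66 for *Znrf1*. The lowest value for *Znrf1*, without KO_Basal 2, is under 1.5-fold.

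**Figure D1:**
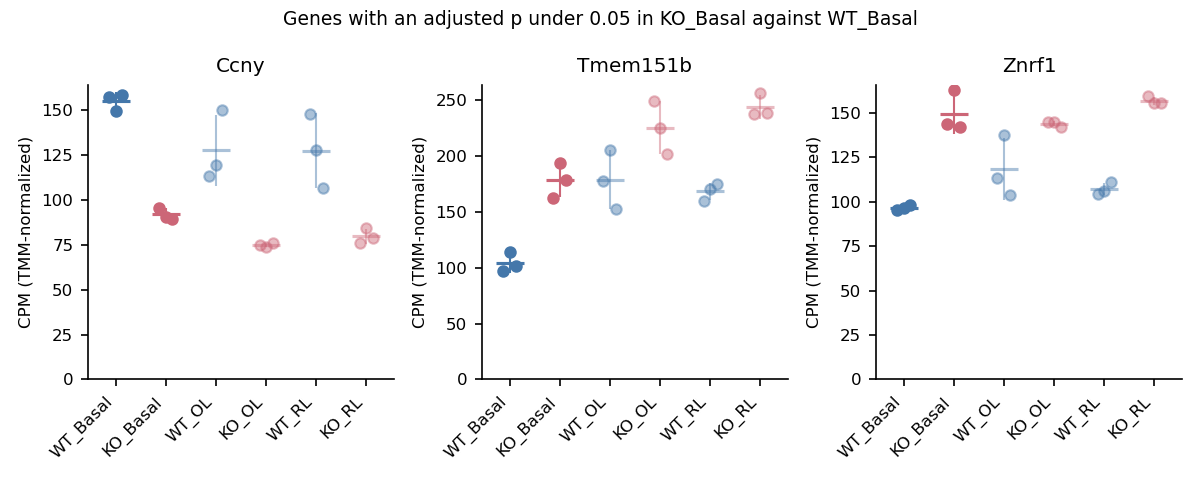
CPM of *Ccny*, *Tmem151b* and *Znrf1* (y axes, from 0) in the 18 mice by group (x axes). Points are mice, horizontal bars are means and vertical bars are SDs of 3 mice, with trained groups drawn paler. *Ccny* separates the 9 KO from the 9 WT mice, *Znrf1* does so with 142 against 138 CPM as the nearest values, and *Tmem151b* in the 3 WT_Basal mice stands below every other group.

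By the criteria of the study, applied on the log2(CPM + 1) scale, 22 genes (0.144% of those tested) were higher and 98 (0.639%) lower in KO_Basal. An unadjusted p under 0.05 alone was met by 326 higher (2.13%) and 287 lower genes (1.87%). The mice of the groups did not overlap for 1080 higher (7.05%) and 1175 lower genes (7.67%). The median difference over all genes was 0.0064. The 22 and 98 genes were not called alike in every set of mice: without WT_Basal 3 there were 35 higher and 28 lower, without WT_Basal 1 there were 25 and 44, and without WT_Basal 2 there were 17 and 172. Leaving out KO_Basal 1, 2 or 3 gave 23 and 57, 41 and 84, and 55 and 60. By voom on the recovered reads the split was 63 higher and 130 lower, and with CPM floored at 1, as the methods describe, it was 30 and 74. Of those that fell, 26 belong to the choroid plexus epithelium list of 41 measured genes, 9 on one of motile cilia and 4 on one of vascular smooth muscle. Of the 22 higher genes, 5 are on a list of hypothalamic neurons and 4 on one of activity-induced immediate early genes. In an alternative added once the data had been seen, the mean level of the choroid plexus list entered the fit as a covariate. By the same criteria 101 genes were then higher and 1, *Ccny*, was lower. Of the original 120 calls, 18 held in that fit. There *Ccny* and *Znrf1* kept an adjusted p under 0.05, and *Tmem151b* had one of 0.0529 (limma). The covariate is made of the list's own genes, 26 of them among the 120, so the loss of those calls was largely built in. Its level was 3.7 to 5.046 in WT_Basal and 2.615 to 3.408 in KO_Basal (mean log2(CPM + 1)). As the groups do not overlap in it, the covariate can take up part of any genotype difference.

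**Figure D2:**
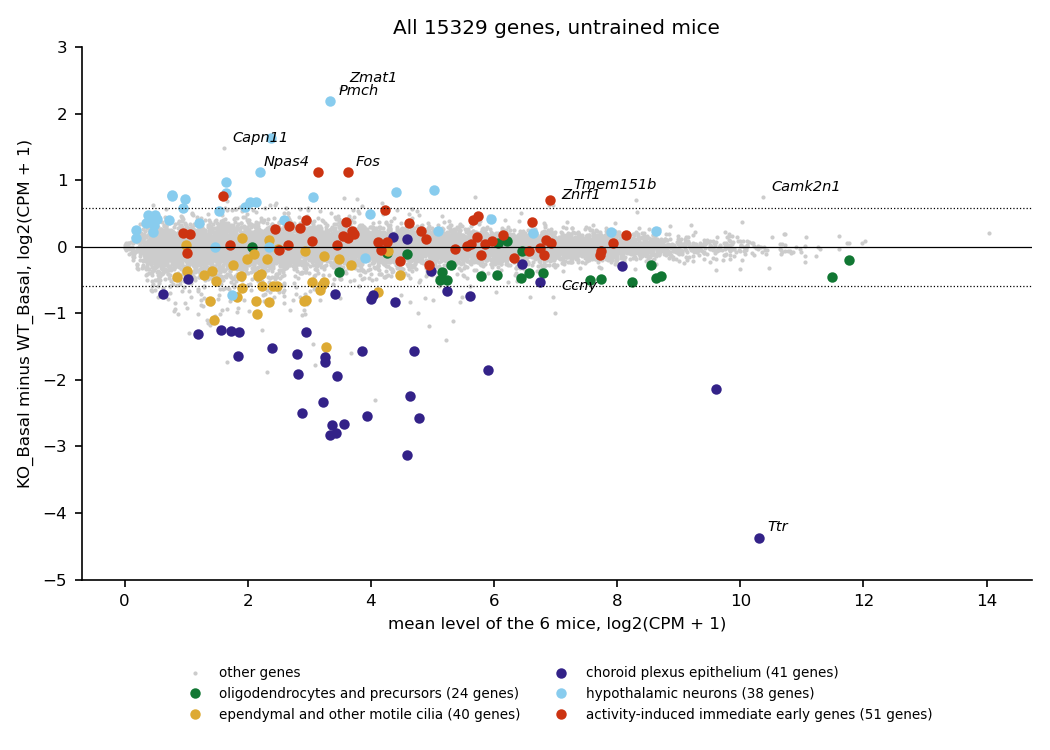
Difference between KO_Basal and WT_Basal (y axis, log2(CPM + 1)) against the mean level of the 6 mice (x axis, log2(CPM + 1)) for every gene, with 5 gene lists in colour. Dotted lines mark a 1.5-fold change. Choroid plexus genes reach down to -4.37 (*Ttr*), while *Zmat1* (2.39) and *Pmch* (2.19) are highest.

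The kin and partners of cyclin Y did not accompany the fall of *Ccny*. Of 21 genes on this list, *Ccny* alone passed either call rule, or even an unadjusted p under 0.05, and the list's median difference was -0.01. *Ccnyl1*, the paralog of *Ccny*, was at 12.8, 10.6 and 13.2 CPM in WT_Basal and at 11.5, 11.3 and 11.1 CPM in KO_Basal, a difference of -0.10 (standard error 0.107). Among the kinases that bind cyclin Y, *Cdk14* had a mean of 297 CPM in WT_Basal and 294 CPM in KO_Basal, and *Cdk16* had means of 228 and 241 CPM. *Cdk17* stood at 214 and 203 CPM and *Cdk18* at 22.2 and 24.9 CPM. Every one of these kinases had overlapping groups of mice. The 6 genes of 14-3-3 proteins on the list, which bind phosphorylated cyclin Y, had differences between -0.07 and 0.07.

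Genes within 5 Mb of *Ccny* were examined as well, as they lie beside the altered locus. Of 39 listed neighbours, 0 passed the adjusted threshold or the 1.5-fold rule (limma). An unadjusted p under 0.05 was met by 3, all higher in KO_Basal (all genes: 2.13%). These were *Cables1* (0.33), which encodes a CDK-binding protein, *Impact* (0.23) and *Gm10125* (0.32). The groups did not overlap for 4 neighbours, all higher in KO_Basal (all genes: 7.05%). The nearest listed neighbour, *Fzd8*, a Wnt receptor gene 94.2 kb away, had a difference of 0.03.

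Among the higher genes, the largest difference was that of *Zmat1* (chromosome X, 134971372 to 135009209), which encodes a zinc finger protein. It was at 2.73, 2.03 and 3.28 CPM in WT_Basal and at 19.5, 17.0 and 17.7 CPM in KO_Basal, a 6.75-fold ratio of means and a log2 difference of 2.39 (standard error 0.612, adjusted p = 0.994 from limma). Over the 18 libraries its level fell into a low and a high range that did not follow genotype. All 3 WT_Basal mice, 1 WT_OL mouse, 1 KO_OL mouse and 1 KO_RL mouse lay between 2.03 and 3.28 CPM, and the other 12 mice between 11.8 and 19.6 CPM. The difference was 0.08 after original and -0.67 after reversal learning.

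*Camk2n1* (chromosome 4, 138454314 to 138460123) encodes an inhibitor of CaMKII, the kinase that drives long-term potentiation at hippocampal synapses. It was at 924, 924 and 1109 CPM in WT_Basal and at 1744, 1834 and 1404 CPM in KO_Basal. It rose by a log2 difference of 0.75 (standard error 0.196, limma adjusted p = 0.994), with no overlap of the groups. The related inhibitor gene *Camk2n2* was at 43.9 to 47.3 CPM in WT_Basal and at 57.0 to 68.0 CPM in KO_Basal, a difference of 0.45 (unadjusted p = 0.00322 from limma) that is under 1.5-fold. The kinase genes *Camk2a* and *Camk2b* had differences of 0.05 and -0.11. In trained mice *Camk2n1* reached 663 to 1313 CPM in WT and 875 to 1215 CPM in KO, so the 3 KO_Basal mice stood above all others.

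*Pcsk1n*, which encodes proSAAS, an inhibitor of prohormone convertase, was at 225 to 256 CPM in WT_Basal and at 345 to 432 CPM in KO_Basal (0.70). *Cpne9*, a copine gene, was at 8.86 to 9.96 CPM and at 14.3 to 19.4 CPM (0.72). *Capn11* (chromosome 17, 45630204 to 45659325), a calpain protease gene, was at 0.266, 0.200 and 1.496 CPM in WT_Basal and at 4.99, 3.23 and 2.25 CPM in KO_Basal, a difference of 1.48 (standard error 0.307, adjusted p = 0.456 from limma). Each of the 3 genes had no overlap between the groups. *Capn11*, *Camk2n1*, *Pcsk1n*, *Cpne9* and *Zmat1* kept their calls in every fit that left out 1 of the 6 mice. *Pisd-ps1* and *Pisd-ps2*, near-identical pseudogene copies whose reads may have been split in counting, were added to the named genes on the strength of their values. *Pisd-ps1* was at 85.9 to 99.99 CPM in WT_Basal and 141 to 148 CPM in KO_Basal, and *Pisd-ps2* at 16.3 to 16.8 and 24.3 to 24.8 CPM. Over both trained states the ranges of WT and KO mice overlapped for these genes. *Pisd-ps1* was at 92.6 to 252.7 and 102.5 to 166.2 CPM there, and *Pisd-ps2* at 17.9 to 41.6 and 20.8 to 29.0 CPM. Likewise, *Pcsk1n* was at 313.6 to 578.3 CPM in trained WT and 389.9 to 483 CPM in trained KO mice, and *Cpne9* at 9.77 to 23.8 and 9.71 to 15.4 CPM.

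Immediate early genes, which neurons transcribe within minutes of activity, included 4 of the 22 higher genes and none of the lower. Of 51 on the list, *Fos*, *Npas4*, *Egr2* and *Arc* rose. With an unadjusted p under 0.05, 12 were higher and 0 lower (all genes: 2.13% and 1.87%). The median of the list was 0.10, and 12 of its members had no overlap, all of them higher in KO_Basal (all genes: 7.05%). *Fos*, which encodes an AP-1 transcription factor, was at 7.59, 5.73 and 6.43 CPM in WT_Basal and at 10.6, 15.6 and 21.9 CPM in KO_Basal. Its mean was 2.44 times that of WT_Basal and its log2 difference 1.12 (standard error 0.219, adjusted p = 0.368 from limma). *Npas4*, a transcription factor gene specific to neurons, was at 3.86, 6.03 and 3.66 CPM in WT_Basal and at 8.04, 10.3 and 14.97 CPM in KO_Basal, a difference of 1.12 (standard error 0.281). *Egr2*, a zinc finger factor gene, went from 0.966 to 1.47 CPM in WT_Basal to 1.91 to 3.64 CPM in KO_Basal (0.76). *Arc*, whose product drives the removal of AMPA receptors from synapses, was at 89.3, 89.0 and 85.9 CPM in WT_Basal and at 90.8, 172 and 188 CPM in KO_Basal (0.70), so that KO_Basal 1 was close to the WT range.

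The same mouse was the lowest of the KO group for *Fos*, *Npas4*, *Egr2* and *Arc*. Without KO_Basal 1, 8 members of the list rose, and without KO_Basal 2 or KO_Basal 3 there were 3, as *Arc* lost its call. Members with an unadjusted p under 0.05 below 1.5-fold were *Junb* (0.46), *Dusp1* (0.54), *Btg2* (0.36), *Trib1* (0.36), *Egr1* (0.37), *Nr4a1* (0.40), *Tiparp* (0.23) and *Per1* (0.18). Members below 0 included *Bdnf* (-0.13), *Homer1* (-0.12), *Nr4a3* (-0.16) and *Ptgs2* (-0.27), each without an unadjusted p under 0.05. In trained mice *Egr1*, a zinc finger factor gene, differed by 0.16 after original and 0.66 after reversal learning, with no overlap in either state. *Fos* did not keep its order. After original learning *Fos* was at 22.4 to 35.5 CPM in WT and 16.4 to 26.9 CPM in KO (-0.47), and after reversal learning at 13.8 to 16.4 and 12.7 to 16.7 CPM (-0.01). The genotype effect on *Fos* in untrained mice exceeded that after original learning by 1.59 (standard error 0.310), which did not pass adjustment (adjusted p = 0.368 from limma).

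**Figure D3:**
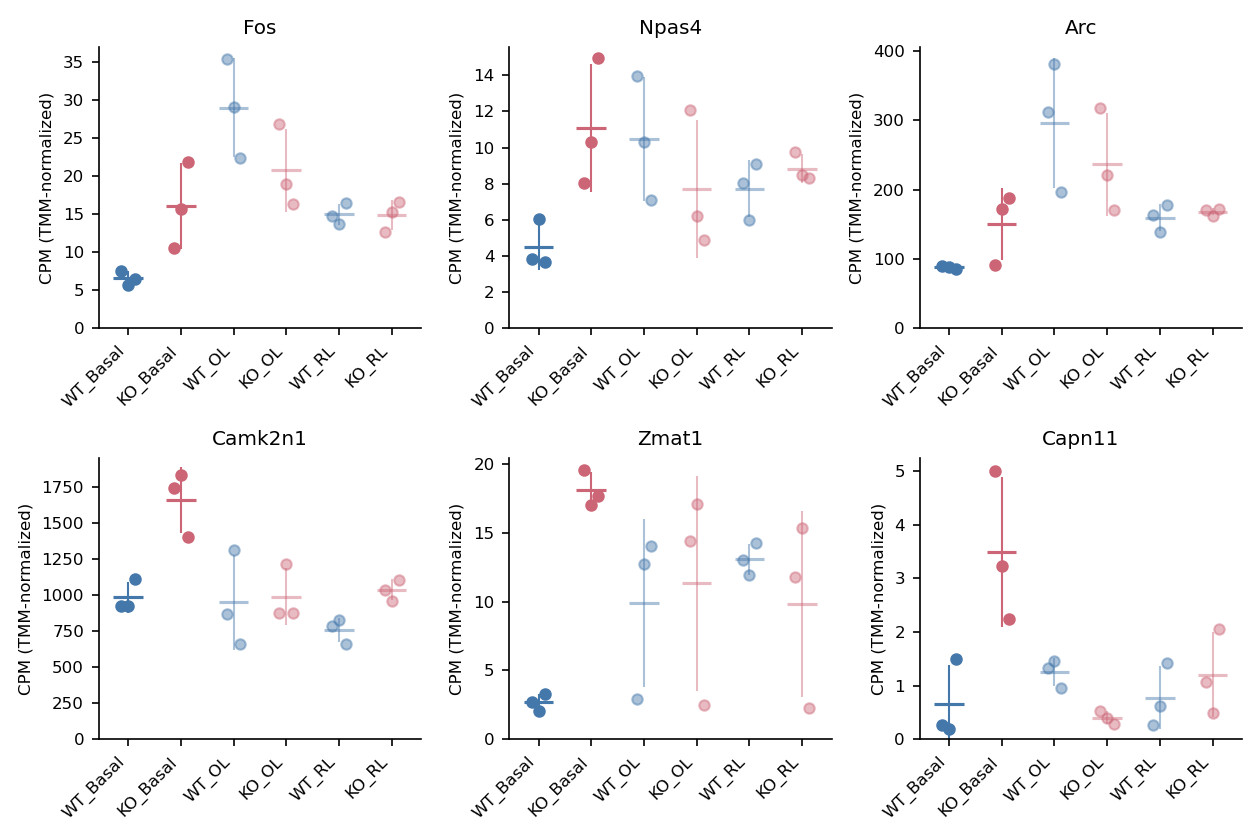
CPM of *Fos*, *Npas4*, *Arc*, *Camk2n1*, *Zmat1* and *Capn11* (y axes, from 0) in the 18 mice by group (x axes), with points for mice, horizontal bars for means and vertical bars for SDs of 3 mice. KO_Basal lies above WT_Basal in each panel, *Zmat1* shows a low range (2.03 to 3.28 CPM) and a high one in several groups, and *Capn11* has the opposite order after original learning.

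Many immediate early promoters and those of smooth muscle genes carry the CArG box, the binding site of serum response factor. The pattern searched was CC, then only A or T, then GG, so boxes with another base inside were not counted. The search covered both strands in the 250 bases upstream of RefSeq starts (GRCm38.p6), where 1.47% of all 32851 promoters held this box. It was found for 2 of 39 matched genes of the immediate early list (*Egr2* and *Dusp5*) and 2 of 21 of the smooth muscle list (*Ldb3* and *Myl9*), against 1.62% of all genes. It was in none of the promoters of the 72 matched genes among the 98 that fell. Among the 22 that rose, 18 matched and *Egr2* alone held a box in this window. RefSeq has 4 starts of *Egr2* with a box in this window. The first window holds the box shown, and the other 3, which lie downstream, share another box. The first is shown because the gene rose, on the plus strand of chromosome 10 from 67537316 to 67537565, with the box in capitals, 72 bases before the start:
Egr2: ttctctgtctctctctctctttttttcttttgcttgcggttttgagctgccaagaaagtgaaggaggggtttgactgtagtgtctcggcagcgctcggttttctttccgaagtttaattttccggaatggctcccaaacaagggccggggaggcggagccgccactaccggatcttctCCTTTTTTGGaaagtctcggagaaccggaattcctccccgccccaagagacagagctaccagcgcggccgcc
A match is a stretch of letters and not a shown site of binding.

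Genes of the choroid plexus, the epithelium in the ventricles that secretes cerebrospinal fluid, made up the largest block of lower genes. Of 41 on the list, 26 fell, 0 rose, 33 were lower with no overlap (all genes: 7.67%), and the median difference was -1.57. The summed level of the list was 4717, 2208 and 7702 CPM in WT_Basal and 806, 1813 and 941 CPM in KO_Basal. *Ttr*, which encodes transthyretin, the carrier of thyroid hormone and retinol-binding protein, was at 2185, 759 and 4004 CPM in WT_Basal and at 23.1, 597 and 50.9 CPM in KO_Basal. Its difference of -4.37 (standard error 1.57, adjusted p = 0.994 from limma) was the lowest of all genes, and the lowest WT_Basal mouse was just above the highest KO_Basal mouse. *F5* (-3.13), the gene of coagulation factor V, was at 42.2, 17.2 and 64.8 CPM in WT_Basal and at 1.27, 10.5 and 1.95 CPM in KO_Basal.

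Transport genes of this epithelium followed the same order of mice. *Kcne2* (-2.83) and *Kcnj13* (-2.54) encode potassium channel subunits, *Slc4a5* (-2.80) a bicarbonate transporter, *Aqp1* (-2.68) a water channel and *Clic6* (-2.57) a chloride channel protein. *Folr1* (-2.66) encodes the folate receptor, *Cldn2* (-2.33) a claudin of leaky tight junctions, and *Prlr* (-2.25) the prolactin receptor. With *Tmem72* (-2.50) and *1500015O10Rik* (-2.30), the latter not on the list, these were the 12 largest falls. *Kl* (-1.85), which encodes Klotho, fell as well. For all 26 fallen genes of the list, WT_Basal 2 was the lowest and WT_Basal 3 the highest of the WT mice, and for 25 of them KO_Basal 2 was the highest of the KO mice. Without WT_Basal 3 the fallen genes numbered 4, without KO_Basal 1 they numbered 11, and without KO_Basal 3 they numbered 16. *Folr1*, *Kcne2* and *F5* kept their calls in each such fit, and *Ttr* lost its call without KO_Basal 1. In trained mice *Ttr* ranged from 12.2 to 7685 CPM, and the list's median difference was 0.36 after original and 0.64 after reversal learning, the opposite sign to that in untrained mice.

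**Figure D4:**
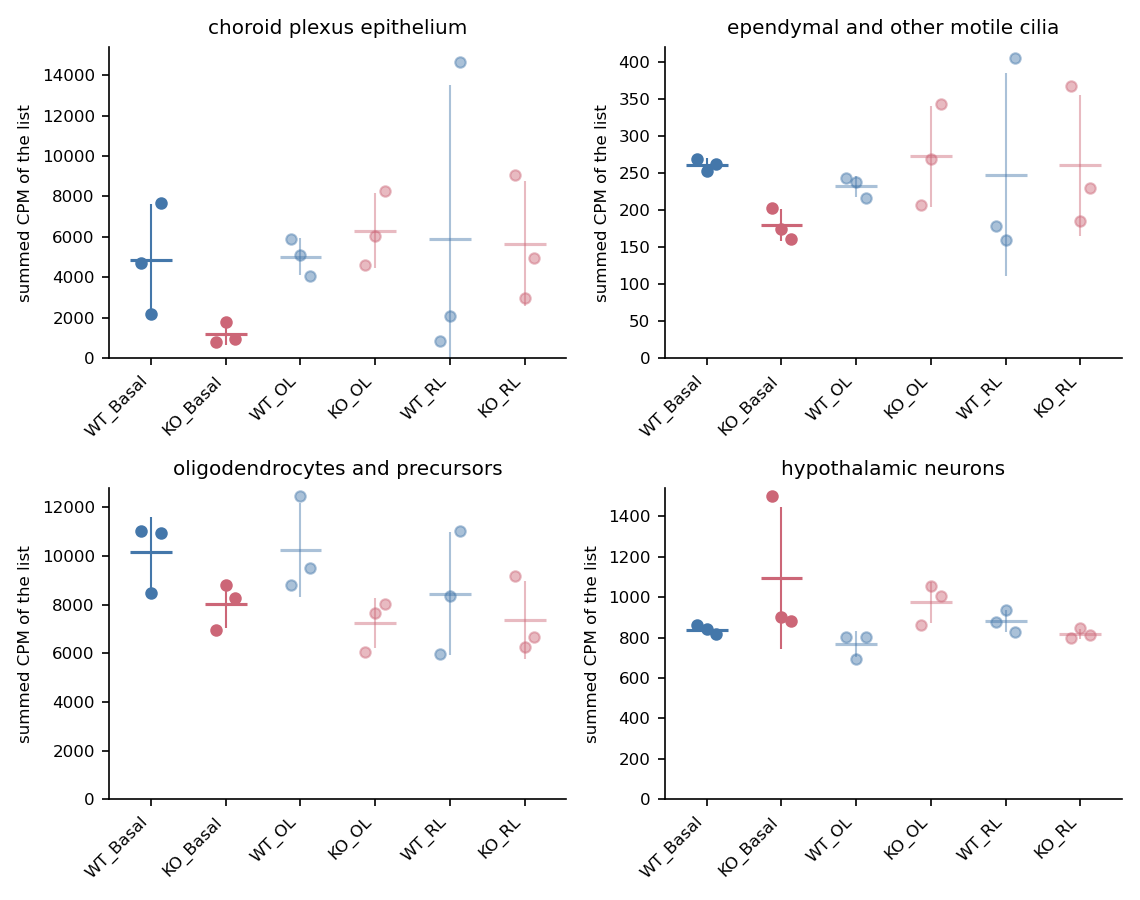
Summed CPM of 4 gene lists (y axes, from 0) in the 18 mice by group (x axes). Points are mice, horizontal bars are means and vertical bars are SDs of 3 mice, drawn down to 0 at the lowest. The choroid plexus sum is 806 to 1813 CPM in KO_Basal and 2208 to 7702 CPM in WT_Basal, and trained mice of either genotype span a wide range.

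Genes of motile cilia, which beat on ependymal and choroid plexus cells, were lower too. Of 40 on the list, 9 fell, 0 rose, 24 were lower with no overlap (all genes: 7.67%), and the median was -0.44. Their summed level was 253 to 270 CPM in WT_Basal and 161 to 204 CPM in KO_Basal. In this sum, unlike that of the choroid plexus list, the 3 WT_Basal mice were close to each other. Of the 9 fallen genes, 6 had WT_Basal 2 as the lowest and 6 had WT_Basal 3 as the highest of the WT mice. *Drc7*, of the nexin-dynein complex, was at 13.7, 8.59 and 17.8 CPM in WT_Basal and at 3.02, 4.84 and 3.84 CPM in KO_Basal (-1.51). *Ak7*, an adenylate kinase gene, was at 8.09 to 9.09 CPM in WT_Basal and at 3.42 to 5.79 CPM in KO_Basal (-0.81). *Wdr63* (-1.09), *Spag16* (-1.02), *Cfap52* (-0.83), *Pifo* (-0.82), *Tekt1* (-0.59) and *Spef2* (-0.59), genes of the axoneme and its assembly, fell as well. *Foxj1*, the master factor of motile cilia, was not among the 9 fallen genes. It was at 17.7 to 22.9 CPM in WT_Basal and at 10.1 to 13.5 CPM in KO_Basal. Without WT_Basal 3 the fallen members numbered 1, without KO_Basal 3 they numbered 2, without WT_Basal 1 they numbered 4 and without KO_Basal 2 they numbered 5. With the choroid plexus level in the fit 0 members fell (limma), and the median was -0.02. The part of ventricular tissue in the other differences of these mice was not tested further.

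Smooth muscle of vessels showed a smaller fall. Of 28 genes on the list 4 fell, 0 rose and 10 were lower with no overlap (all genes: 7.67%), with a median of -0.16. *Myh11*, smooth muscle myosin, was at 42.4, 27.8 and 23.3 CPM in WT_Basal and at 17.6, 13.8 and 18.3 CPM in KO_Basal (-0.84). *Acta2* (-0.81), *Cnn1* (-0.77) and *Tagln* (-0.72) encode contractile proteins of the same cells. WT_Basal 1 was the highest mouse for each of the 4 genes. Without it the fallen members numbered 1, and without KO_Basal 2 they numbered 2. With the choroid plexus level in the fit 0 fell (limma), and the median was -0.08. After original learning the same 4 genes were lower in every KO than in every WT mouse, by -0.72 to -1.05, and after reversal learning the groups overlapped. Those mice are other animals, and none of these differences passed adjustment.

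Cells of the vessel wall and the meninges otherwise showed small differences. Of 25 endothelial genes 0 rose or fell (limma), and 3 were lower with an unadjusted p under 0.05 (all genes: 1.87%). *Kdr*, a receptor for VEGF, had the largest difference (-0.41). Of 30 meningeal fibroblast genes *Igfbp2*, which choroid plexus also expresses, fell (-1.12). It was at 58.3, 32.9 and 73.7 CPM in WT_Basal and at 26.4, 22.8 and 21.4 CPM in KO_Basal, and it lost its call without WT_Basal 1, WT_Basal 3, KO_Basal 2 or KO_Basal 3. The median of that list was 0.10.

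Of 24 genes of oligodendrocytes and their precursors, 0 passed the 1.5-fold rule (limma) and 8 were lower with an unadjusted p under 0.05 (all genes: 1.87%). No overlap, with KO_Basal lower, was found for 12 (all genes: 7.67%), and the median was -0.39. *Opalin*, of the myelin membrane, was at 47.3, 39.2 and 43.6 CPM in WT_Basal and at 25.1, 34.9 and 31.5 CPM in KO_Basal (-0.50). *Trf* (-0.53), *Cldn11* (-0.50), *Fa2h* (-0.50), *Mag* (-0.49), *Cnp* (-0.47) and *Gjc3* (-0.42) met the same p. *Mbp* (-0.20) did not, and the precursor genes *Pdgfra* (0.09) and *Gpr17* (0.06) were near 0. Without WT_Basal 2, KO_Basal 2 or KO_Basal 3, the members that fell numbered 6, 2 and 3. With the choroid plexus level in the fit the median was 0.03.

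Microglia and astrocytes had medians on the other side of 0. Of 20 microglial genes 19 had a difference above 0 (all genes: 7997 of 15329) and 5 were higher with no overlap (all genes: 7.05%). *Tmem119* (0.28), a marker of resident microglia, alone had an unadjusted p under 0.05, and the median was 0.14. Of 20 astrocyte genes 18 had a difference above 0 (all genes: 7997 of 15329), with a median of 0.13. Among them 8 were higher with no overlap (all genes: 7.05%). *Gjb6*, a connexin gene, was at 44.0 to 46.6 CPM in WT_Basal and at 56.6 to 61.9 CPM in KO_Basal (0.37, unadjusted p = 0.00353 from limma). *Agt* (0.33) had its highest value, 47.8 CPM, in KO_Basal 1, and without that mouse its difference was -0.01. In both lists 0 genes passed either call rule (limma).

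Markers of the hippocampal fields were all present, with small differences that were mostly below 0. This held for 15 of 18 CA1 genes, 12 of 17 CA3 and CA2 genes and 13 of 20 dentate genes (all genes: 7332 of 15329). Lower with no overlap were 4, 3 and 0 of them (all genes: 7.67%), and 0 were higher with no overlap. The lists of CA1 neurons (18 genes), of CA3 and CA2 neurons (17 genes) and of dentate granule neurons (20 genes) had medians of -0.17, -0.12 and -0.02, and 0 of their members passed either call rule (limma). The CA1 gene *Lefty1* (-0.43) and the CA2 genes *Amigo2* (-0.36) and *Rgs14* (-0.32), the latter a brake on plasticity in CA2, had the largest differences with an unadjusted p under 0.05. *Rgs14* was at 122, 132 and 112 CPM in WT_Basal and at 96.3, 104 and 91.3 CPM in KO_Basal. In the dentate list 0 genes had an unadjusted p under 0.05 (limma), and *Calb1* was at 128 to 149 CPM in WT_Basal and 136 to 194 CPM in KO_Basal.

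Of 24 genes of GABAergic interneurons, *Calb2*, calretinin, rose, from 27.6 to 51.0 CPM in WT_Basal to 46.4 to 73.8 CPM in KO_Basal (0.75), with overlap between the groups. It lost its call without WT_Basal 1, WT_Basal 2, KO_Basal 1 or KO_Basal 3. *Slc17a8*, the vesicular glutamate transporter VGLUT3 of a subset of interneurons, was added because of its values. It was at 10.4, 8.26 and 12.6 CPM in WT_Basal and at 4.23, 6.33 and 6.09 CPM in KO_Basal (-0.80).

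Hypothalamic genes among the rises were highest in 1 mouse. Of 38 listed genes 5 rose (all genes: 0.144%) and 0 fell. A difference above 0 was found for 35 (all genes: 7997 of 15329), with a median of 0.45. The groups did not overlap for 4, all higher in KO_Basal (all genes: 7.05%). *Pmch*, melanin-concentrating hormone, was at 52.6 CPM in KO_Basal 1, at 0.506 and 1.11 CPM in the other KO_Basal mice, and at 0.133 to 0.350 CPM in WT_Basal. *Hcrt*, orexin, was at 25.0 CPM in KO_Basal 1 and at 0 and 0.260 CPM in the other two, against 0 to 0.0666 CPM in WT_Basal. *Avp* (0.72), vasopressin, *Prph* (0.81), peripherin, and *Slc17a6* (0.85), the vesicular glutamate transporter VGLUT2, rose as well, each with its highest value in KO_Basal 1. Without KO_Basal 1, 0 members rose (limma) and the median was 0.05. Without KO_Basal 2 or KO_Basal 3 there were 12 and 17, and without WT_Basal 1 or WT_Basal 2 there were 2 and 3. The summed level of the list was 815 to 862 CPM in WT_Basal and 882 to 1499 CPM in KO_Basal, and the part of neighbouring tissue in these values was not tested. Of 30 thalamic and habenular genes *Slc17a6* and *Calb2* rose, and the median was -0.02. Pituitary genes were likewise uneven: *Gh*, growth hormone, was at 0.0666, 32.3 and 7.32 CPM in WT_Basal and at 2.26, 1.55 and 0.716 CPM in KO_Basal, and 0 of 7 listed genes passed either rule (limma).

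**Figure D5:**
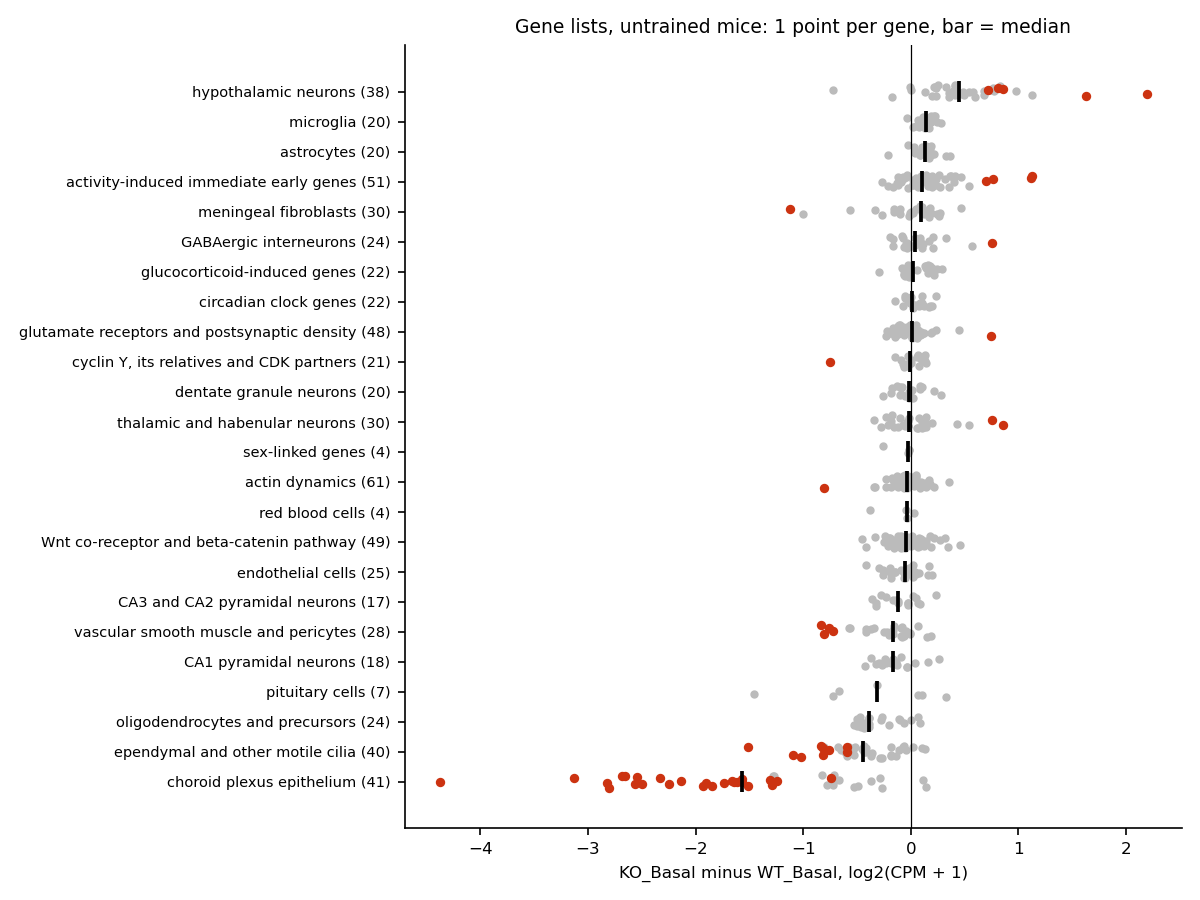
Difference between KO_Basal and WT_Basal for each gene of 24 lists (x axis, log2(CPM + 1)), with the number of listed genes in brackets. Points are genes, red where the change was over 1.5-fold with an unadjusted p under 0.05, and black bars are list medians, from -1.57 (choroid plexus epithelium) to 0.45 (hypothalamic neurons).

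Glutamate receptors and the postsynaptic density, the site at which cyclin Y is enriched, showed 1 rise among 48 genes, *Camk2n1*, and a median of 0.01. The AMPA receptor genes *Gria1*, *Gria2*, *Gria3* and *Gria4* had differences of -0.14, -0.05, -0.04 and 0.13, and the NMDA receptor genes *Grin1*, *Grin2a* and *Grin2b* had -0.10, -0.19 and -0.14. The scaffold *Dlg4*, PSD-95, was at a mean of 747 CPM in WT_Basal and 773 CPM in KO_Basal. *Ppp3ca*, a calcineurin subunit, was lower with no overlap (-0.23) but without an unadjusted p under 0.05.

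Actin genes, on which the study centres, had a median of -0.03 over 61 listed genes. *Acta2* alone passed the 1.5-fold rule, and it is also on the smooth muscle list. An unadjusted p under 0.05 was found for 2 higher genes, *Rac3* (0.36) and *Limk2* (0.14), and for 3 lower ones, *Acta2*, *Rhog* (-0.33) and *Actb* (-0.23). Over all genes that p was met by 2.13% higher and 1.87% lower. *Limk2*, a LIM kinase gene, was at 90.1 to 95.3 CPM in WT_Basal and at 98.0 to 106 CPM in KO_Basal. *Rhog*, a small GTPase gene, was at 23.5 to 25.9 CPM in WT_Basal and at 16.9 to 21.6 CPM in KO_Basal. In 9 of the 61 genes the KO_Basal mice were lower with no overlap and in 2 higher (all genes: 7.67% and 7.05%).

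Wnt pathway genes (49 listed) had a median of -0.04 with 0 passing either call rule (limma) and 2 higher with an unadjusted p under 0.05 (all genes: 2.13%). *Lgr5* (-0.46) and *Wnt2b* (0.45) had the largest differences, neither with an unadjusted p under 0.05. Glucocorticoid-induced genes (22 listed) had a median of 0.02, with 3 higher at an unadjusted p under 0.05 (all genes: 2.13%). Clock genes (22 listed) had one of 0.02, with 2 higher at that level, *Nfil3* (0.20) among them. *Mt2* (0.29), *Rasd1* (-0.29) and *Ciart* (0.24) had the largest differences of those lists. Of 4 listed red blood cell genes 0 had an unadjusted p under 0.05 (limma), with *Alas2*, of heme synthesis, at -0.38. Y-linked genes were present in all 6 mice, *Ddx3y* at 86.0 to 103 CPM and *Eif2s3y* at 24.5 to 47.2 CPM.

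The genotype difference of untrained mice was set beside that of trained mice, which are separate animals. After original learning 10 genes (0.0652%) passed the adjusted threshold between KO_OL and WT_OL, *Ccny* among them, and after reversal learning 0 genes (0%) did between KO_RL and WT_RL, with 756 at an unadjusted p under 0.05 (limma). Of the 22 genes that rose in KO_Basal, 6 had a difference above 0 in both trained states. Of the 98 that fell, 11 had one below 0 in both. Their median difference was -0.95 in untrained mice, 0.19 after original and 0.29 after reversal learning. Of the 26 fallen choroid plexus genes, 0 were below 0 in both trained states. The same counts over all genes were not made, so these have no background to be read against.

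Genes whose KO and WT mice did not overlap in any of the 3 states, always in the same direction, numbered 7 higher (0.0457% of all genes) and 8 lower in KO (0.0522%). No overlap was found for 1166 higher (7.61%) and 1363 lower genes (8.89%) in the mice after original learning, and for 611 (3.99%) and 643 (4.19%) in those after reversal learning. Apart from *Ccny* and *Znrf1*, the widest such differences, as the mean over the 3 states, were those of *Trim59* and *Clec14a*, named here because of their values. *Trim59*, which encodes a tripartite motif protein, differed by -0.53 in untrained mice, -0.45 after original and -0.52 after reversal learning. *Clec14a*, an endothelial lectin gene, differed by -0.43, -0.48 and -0.55. Neither passed the adjusted threshold in any state.

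A direct test of whether the genotype effect differed between states gave 0 genes at an adjusted p under 0.05, for original learning (1908 at an unadjusted p under 0.05) and for reversal learning (765), with limma, and 0 with voom on the recovered reads. The smallest adjusted p was 0.368 for original and 0.908 for reversal learning.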

How the data were processed

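Hippocampal poly(A) RNA was sequenced with a kit that is stranded per the labels. Alignment to mm10 and gene counting were done by the authors in STAR 2.5.1, TMM scaling in edgeR 3.12.1 (R 3.3.0), and log2 CPM values of 15329 genes were deposited. The methods describe CPM floored at 1, but in the deposited log2 values 2 to the power of the value, minus 1, was a whole multiple of 1 step per library in 100% of cases (tolerance 0.1 reads), so they were read as log2(CPM + 1). Libraries were grouped by their labels. The values were fitted with limma 3.58.1 in R 4.3.3, with 1 mean per group over 18 libraries, 12 residual degrees of freedom and a variance trend. All tests were two-sided. Descriptions and figures used Python 3.11.15 and matplotlib 3.10.9. Simulated data with planted changes were used to test the fitting step. Replicates varied more than counting noise, with a chi-square per gene of 8.74 to 19.1.

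Named genes were *Ccny*, all adjusted calls, the 12 largest rises and 12 largest falls without overlap and at 1 CPM or more, and the leading members of 24 gene lists (the called ones, or the 2 of largest difference). Other list members are named for their role, after their values were seen, and some members are not reported here. The comparison, the lists and the rule were chosen with earlier results of these data known, and no list is independent evidence. Positions are from GENCODE M21 (GRCm38), where 14769 symbols matched directly and 454 by a later symbol, and promoter sequences are from RefSeq (GRCm38.p6). Alternatives were 11 other settings, leaving out each of the 6 mice, and 2 chosen after seeing the data.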

Additional observations from a re-analysis of the deposited data

Results flagged for a closer look

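Among the named genes and the 120 genes that met both criteria, there were 9 for which the KO and WT mice did not overlap either in the untrained state or after original learning, and the order was opposite, and 1 for which this held with reversal learning. Over all 15329 genes the counts were 165 (1.08%) for original and 88 (0.574%) for reversal learning. The smaller set was largely picked by untrained values. Among its 120 called genes, 15 of 22 higher and 95 of 98 lower ones had no overlap in untrained mice. The shares over all genes are therefore not a like comparison for it. Each value below is the genotype difference in untrained mice minus that in trained mice, on the log2(CPM + 1) scale. With p-values adjusted over all genes in limma, the adjusted p was between 0.368 and 0.390 for the 9 genes and 0.908 for the tenth, so for none was the difference between states shown after adjustment.

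The genes that were higher in untrained KO mice and lower after original learning were *Capn11*, with a difference between states of 2.16 (standard error 0.434), and *Prph*, with 1.84 (standard error 0.408). *Capn11* was at 0.955 to 1.45 CPM in WT_OL and at 0.281 to 0.521 CPM in KO_OL. The genes that were lower in untrained KO mice and higher after original learning were *Amigo2* (-0.80), *Car12* (-1.37), *Cldn2* (-2.93), *Drc7* (-1.99), *Pon1* (-1.28), *Strip2* (-1.34) and *Trpv4* (-2.03). Of these, *Car12*, *Cldn2* and *Trpv4* are on the choroid plexus list and *Drc7* is on that of motile cilia, whose levels vary widely between mice. *Wnt2b* was higher in untrained KO mice and lower after reversal learning, with a difference between states of 1.38 (standard error 0.334). It was at 0.586 to 2.42 CPM in KO_Basal and at 0.541 to 0.566 CPM in WT_Basal.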

How the results depend on the processing

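The 120 genes over 1.5-fold with an unadjusted p under 0.05 became 182 (21 higher, 161 lower) with only the 6 untrained libraries in the fit, 239 with a pseudocount of 0.1, 48 with one of 5, 190 with library weights and 193 with voom on recovered reads. Leaving out 1 mouse at a time gave 63 (without WT_Basal 3) to 189 (without WT_Basal 2). The 3 genes with an adjusted p under 0.05 became 7 with the 6 libraries alone, 5 with CPM floored at 1, 12 with library weights, 1 without the reversal learning libraries (*Ccny*; added after seeing the data) and 0 to 4 without 1 mouse. With quantile normalization *Tmem151b* and *Ccny* kept their call, and with the choroid plexus covariate *Ccny* and *Znrf1* did. The difference from original learning went from 0 genes to 1 with the floor and 3902 with library weights, where 1 WT_OL library had a weight of 300.7. The difference from reversal learning went from 0 to 5 with the choroid plexus covariate. The causes of these shifts were not tested.

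With that covariate, added after seeing the data, the sign turned for *Clic6* (0.11), *Trf* (0.025), *Alas2* (0.11) and *Ddx3y* (0.10). Leaving out 1 mouse turned it in part of the fits for *Agt* (-0.011 to 0.56), *Eif2s3y* (-0.44 to 0.020) and *Ddx3y* (-0.11 to 0.042). Over the named genes, 1216 values kept direction and side of the threshold, 146 lost the call, 14 gained one and 9 turned. Of 456 list medians under the alternatives, 30 moved by more than the spread between mice, and 38, from 14 lists, had the other sign, among them meningeal fibroblasts (-0.086 without WT_Basal 2), dentate granule neurons (0.050 without KO_Basal 2), and with the covariate oligodendrocytes (0.026) and GABAergic interneurons (-0.043).

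Deviations of mice with the same replicate number correlated at 0.0741, -0.0269 and -0.196, and those with different numbers at -0.133 to 0.154. With 3 mice a group, these values cannot decide whether the numbers pair the mice. With a replicate block 122 genes (21 higher, 101 lower) met both criteria and 3 passed adjustment. Depth limits the lowest genes: *Pon1*, at 0 to 0.0633 CPM in KO_Basal, was near the worth of 1 read, and 9 to 32 genes a library had none.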
